A study of Mus musculus with 3 samples.

Results

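Heparan sulfate sulfotransferases are the Golgi enzymes that place sulfate groups on heparan sulfate, the long sugar chain carried by syndecans, glypicans and other proteins of the cell surface and matrix. The genes followed here were a named list of 10 (Ndst3, Ndst4, Hs2st1, Hs6st1, Hs6st2, Hs6st3, Hs3st1, Hs3st2, Hs3st4 and Hs3st5), out of 15 family genes and of the 31053 genes in the files. The list was not chosen by a threshold on the values below, but it was chosen with earlier results of these data known. The mRNAs were measured by 10x Genomics single-cell RNA sequencing in neurons sorted from the neocortex (NCx) of SstCre/+;RCE mice at embryonic day 16.5 (E16.5) and at postnatal days 1 and 5 (P1 and P5), with 1 library per stage made from 6, 3 and 3 pooled animals, respectively. In these mice Cre recombinase is made from the somatostatin gene Sst and switches on a green fluorescent reporter for good, so that a GFP+ cell is one that has expressed Sst at some time, whatever its Sst level on the day of the sort. All 3 libraries carry the same alleles (strain label Sst-Cre; RCEloxP) and hold live GFP+, DAPI-negative cells. Stage was confounded with library, with the removal of myelin on percoll at P1 and P5, with trypsin and DNAseI added at P5, and with the Cell Ranger version at P1, so none of these can be told apart from age.

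Heparan sulfate is built as a plain chain and then edited in order. N-deacetylase/N-sulfotransferases (Ndst genes) replace acetyl by sulfate on glucosamine, and the later 2-O, 6-O and 3-O sulfations fall mostly on or near the stretches they have marked. The resulting sulfate pattern is known to set how well growth factors and guidance cues such as fibroblast growth factors, Slits, netrin and pleiotrophin bind to a cell, and several of the enzymes are required for axon guidance in the developing brain.

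Cells with over 700 genes and under 10% of UMIs (unique molecular identifiers, counted as mRNA molecules) from mitochondrial genes were kept, which left 88.3% of cells at E16.5 (3952 of 4478), 56.3% at P1 (2501 of 4440) and 87.5% at P5 (2980 of 3406), or 9433 of 12324 in all (76.5%). The kept cells held 24632146, 10964193 and 12886663 UMIs, with a median of 5577, 3293 and 3935.5 per cell. Between 1 and 6 cell barcodes were shared by each pair of libraries. The comparisons were among 3 groups. Nos1 cells had at least 1 UMI of Nos1, the neuronal nitric oxide synthase that marks long-range projection (LRP) neurons among SST+ cells (67, 434 and 547 cells at E16.5, P1 and P5). Sst-high cells had at least 5 Sst UMIs and no Nos1 (1920, 757 and 896 cells). Sst-silent cells had at least 1 UMI of Lhx6, the factor of interneurons from the medial ganglionic eminence (MGE), and no Sst (776, 491 and 559 cells, of which 2, 26 and 14 also had Nos1). Levels are summed UMIs of a group per 1000000 of its UMIs (CPM), with exact Poisson 95% intervals that cover counting error only. With 1 library per stage no test was possible, and ratios are on the log2(CPM + 1) scale, called past the fold at 2-fold or more with at least 10 UMIs over both sums.

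Markers that the groups were not built on were read as a check. Chodl, an LRP marker, was found in 22.4%, 51.6% and 60.0% of Nos1 cells at the 3 stages against 4.22%, 7.40% and 3.46% of Sst-high cells, and Npy had 12366, 24679 and 34619 CPM against 2405, 2134 and 1396. Gad1, the GABA-synthesizing enzyme, had 152 to 324 CPM in all 3 groups at every stage. The GABAergic marker Gad2 was less frequent in Nos1 cells: 35.8%, 54.1% and 61.1% of cells against 80.6%, 75.7% and 81.1% of Sst-high cells. Sst-silent cells had it in 74.5%, 67.8% and 59.7%. At E16.5 Gad2 had 89.2 CPM in Nos1 cells (126 in the 52 without a Neurod6 UMI) against 298 in Sst-high cells. Excitatory-neuron genes were present in Nos1 cells at E16.5 and P1. A list of 5 excitatory-neuron genes (Neurod6, Neurod2, Slc17a7, Slc17a6 and Tbr1) summed to 581, 154 and 6.11 CPM in Nos1 cells at E16.5, P1 and P5, against 7.15, 6.31 and 1.81 in Sst-high cells. At E16.5 it came from 15 of the 67 cells, those with a Neurod6 UMI, in which it reached 1805 CPM against 2.48 in the other 52. At P1 it reached 1457 CPM in 17 such cells and 40.3 in the other 417. Values of Nos1 cells are therefore given also without the Neurod6 cells where these change a value.

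The main patterns were these. Ndst4 was far higher in Nos1 cells than in Sst-high cells after birth, and Hs3st2 appeared in Nos1 cells between E16.5 and P5. Hs6st2 was high in Sst-high cells only postnatally, at a higher level in cells with Reln than in cells with Tac1, while after birth Ndst3 was higher in Tac1 cells than in Reln cells and in Sst-silent than in Sst-high cells. Hs2st1 and Hs6st1 were present in Nos1, Sst-high and Sst-silent cells with small differences between these groups.

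**Figure D1:**
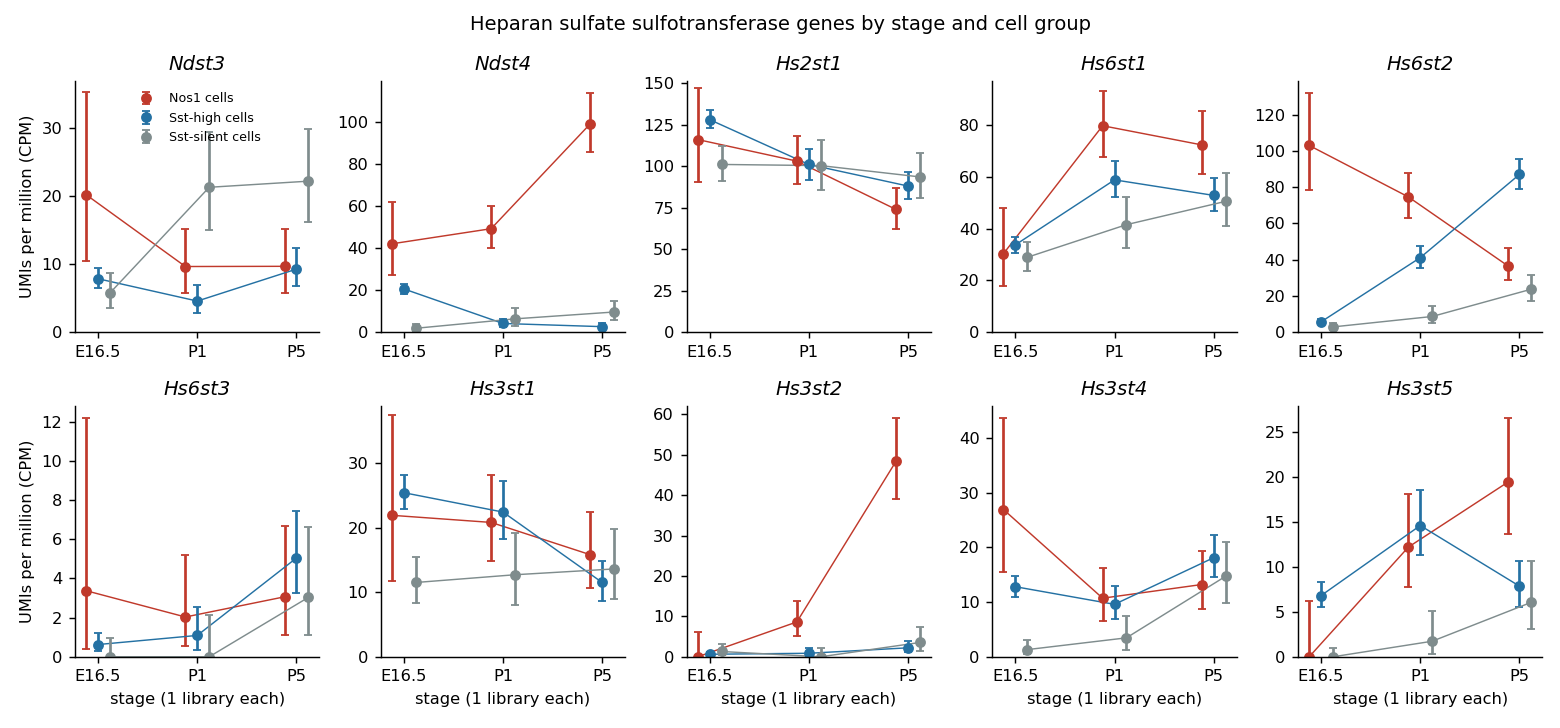
CPM (linear axes from 0, scaled per gene) of the 10 sulfotransferase genes at E16.5, P1 and P5 in Nos1, Sst-high and Sst-silent cells. Points are summed UMIs of 1 library and bars are exact Poisson 95% intervals, and lines join the stages of a group. Ndst4 goes from 42.1 to 99.3 CPM in Nos1 cells and from 20.6 to 2.62 in Sst-high cells, whereas Hs2st1 lies between 73.9 and 128 throughout.

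Ndst4 encodes an enzyme of the first editing step, known for strong sulfotransferase and weak deacetylase activity, and lies on chromosome 3 (GRCm38, GENCODE M21, chr3:125404076-125728899, plus strand). In Nos1 cells it had 42.1 CPM (27.2 to 62.1, 25 UMIs) at E16.5, 49.3 (39.9 to 60.1, 97 UMIs) at P1 and 99.3 (85.9 to 114, 195 UMIs) at P5. In Sst-high cells it had 20.6 CPM (18.3 to 23.1, 297 UMIs) at E16.5, 4.13 (2.49 to 6.46, 19 UMIs) at P1 and 2.62 (1.39 to 4.48, 13 UMIs) at P5. The groups thus moved apart with age: their intervals did not overlap in any library, and the log2 ratio of Nos1 over Sst-high cells was 0.99, 3.29 and 4.79. From E16.5 to P5 the level differed by a log2 ratio of 1.22 in Nos1 cells and of -2.58 in Sst-high cells. Without the Neurod6 cells the first of these was 0.68, which is no longer past the fold, and the E16.5 ratio to Sst-high cells was 1.54.

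The Ndst4 UMIs were spread over many cells. At P5, 138 of 547 Nos1 cells had one (25.2%) and no cell had more than 5, against 1.23% of Sst-high cells. Reln cells, a group described further on, carried it in 0.386% of cells at a median depth of 5549.5 UMIs, above the 3073 of Nos1 cells. This group is not separate from Sst-high cells, of which 70.6% had Reln at P5. The share that stray RNA could give was not tested. When cells were thinned to an equal depth of 2000 UMIs (133 Nos1, 110 Sst-high and 42 Reln cells were shallower and dropped), the shares were 17.6%, 1.02% and 0.302%. The order of the groups was the same at equal depth.

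Within Nos1 cells after birth, Ndst4 went with the Nos1 level and with Chodl, a second LRP marker. At P5 it had 13.2 CPM (4.27 to 30.7) in cells with 1 to 2 Nos1 UMIs, 84.1 (62.0 to 112) with 3 to 9, and 140.2 (118 to 165) with 10 or more. At P1 the corresponding values were 11.8, 70.0 and 74.3 CPM, where the upper 2 classes did not differ beyond counting error. Nos1 cells with Chodl had 120.4 CPM (102 to 141) at P5 and those without it 64.0 (47.1 to 85.2).

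The same marker split the few Ndst4 UMIs of Sst-high cells. The 31 Sst-high cells with Chodl at P5 held 7 of the 13 UMIs (53.8%), at 42.3 CPM (17.0 to 87.2), and the 865 cells without Chodl held 6, at 1.25 CPM (0.459 to 2.72). At E16.5 the 81 Chodl cells had 52.6 CPM (37.2 to 72.2) against 18.9 (16.7 to 21.4) in the others, so that at that age Ndst4 was present in Sst-high cells outside the Chodl cells as well. At P1 the split was not seen: the 56 Chodl cells had 2 UMIs, or 6.15 CPM (0.744 to 22.2), below the E16.5 interval of Chodl cells, and the others 3.98 (2.32 to 6.37). The split by Chodl was chosen after the values were seen.

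In Sst-silent cells Ndst4 had 1.84 CPM (0.739 to 3.79) at E16.5, 6.34 (3.16 to 11.3) at P1 and 9.60 (5.78 to 15.0) at P5. This order is the opposite of that in Sst-high cells, and the log2 ratio of Sst-silent over Sst-high cells went from -2.93 at E16.5 through 0.52 to 1.55 at P5. The P5 sum is 19 UMIs in 19 of 559 cells. These sums include the 2, 26 and 14 Sst-silent cells that also had Nos1. With those cells left out, all 41 ratios followed stayed within their counting intervals, those of Ndst4 at E16.5 and P5 among them. The P1 ratio, under 2-fold, was not followed. At E16.5 Ndst4 was also higher in Tac1 than in Reln cells (27.5 against 6.07 CPM, with 23 UMIs in 5.76% of the Tac1 cells).

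**Figure D2:**
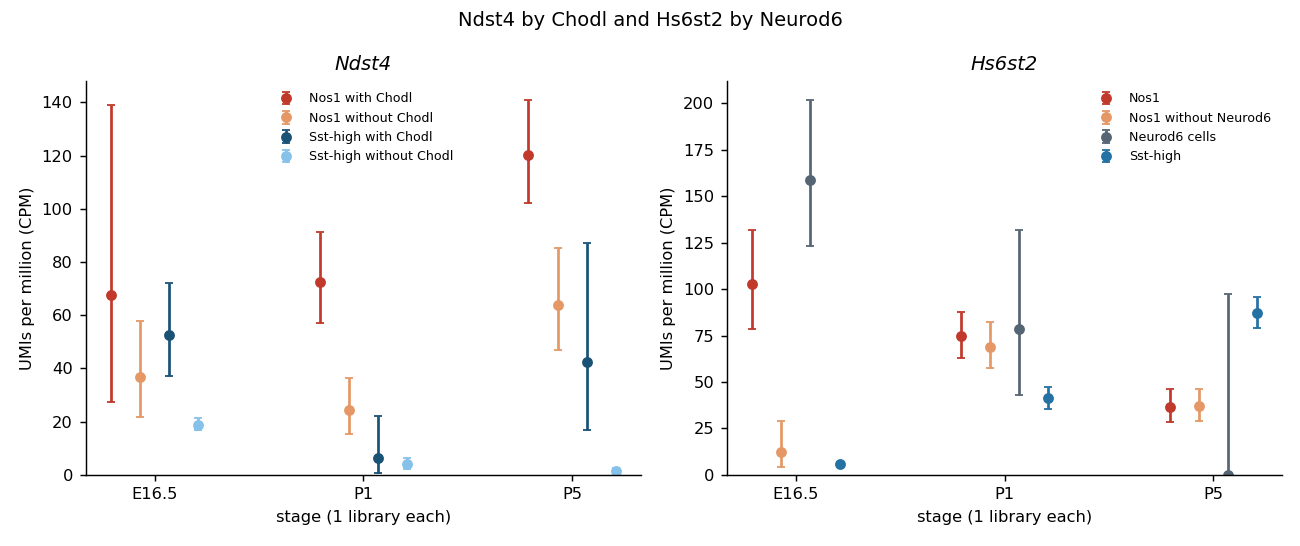
Left, Ndst4 CPM by stage in Nos1 and Sst-high cells with and without a Chodl UMI. Right, Hs6st2 CPM by stage in all Nos1 cells, Nos1 cells without a Neurod6 UMI, Neurod6 cells (at least 3 Neurod6 UMIs, no Lhx6) and Sst-high cells. Bars are exact Poisson 95% intervals of 1 library. Sst-high cells with Chodl have 52.6, 6.15 and 42.3 CPM of Ndst4 at the 3 stages where the others have 18.9, 3.98 and 1.25, and at E16.5 Hs6st2 is at 103 CPM in all Nos1 cells, 12.4 without the Neurod6 cells and 159 in Neurod6 cells.

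Ndst3, which encodes an enzyme with the reverse balance of the 2 activities (strong deacetylase, weak sulfotransferase), lies on the minus strand of the same chromosome (chr3:123526166-123690853). Its promoter is shown because its windows were the poorest in CG pairs among those of the members. The stretch below (RefSeq, GRCm38, chr3:123672578-123672727, minus strand, ending 101 bases before a transcription start) has 0 CG pairs, and the whole 300-base window around that start has 1. The window of a second Ndst3 start has 3. The median over 32851 promoters was 7, and among members Hs3st5 had 9 and Hs6st1 and Hs3st4 had 47. The stretch shown holds no match to the motifs searched, so that no base is in capitals. On the minus strand the GENCODE gene begins at 123690853, so that both RefSeq starts and the stretch shown lie inside the annotated gene. Whether either start is in use here was not tested.

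Ndst3 promoter: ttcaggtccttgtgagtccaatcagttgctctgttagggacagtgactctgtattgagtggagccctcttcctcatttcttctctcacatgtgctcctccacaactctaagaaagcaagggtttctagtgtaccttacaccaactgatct

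In Sst-silent cells Ndst3 had 5.77 CPM (3.62 to 8.74) at E16.5, 21.3 (15.0 to 29.4) at P1 and 22.2 (16.2 to 29.8) at P5. Sst-high cells had 7.85 (6.47 to 9.43), 4.57 (2.83 to 6.99) and 9.27 (6.78 to 12.4) CPM. The groups did not differ beyond counting error at E16.5 and were separate at P1 and P5, with log2 ratios of -0.39, 2.00 and 1.18. In Nos1 cells Ndst3 had 20.2 CPM (10.4 to 35.3, 12 UMIs) at E16.5, 9.65 (5.81 to 15.1) at P1 and 9.68 (5.83 to 15.1) at P5, and at P5 the ratio to Sst-high cells was 0.06. The ratio of 1.26 at E16.5 was 0.30 without the Neurod6 cells. Ndst1, the broadly expressed member outside the 10, differed little between groups, with 63.7, 64.9 and 79.3 CPM in Nos1, Sst-high and Sst-silent cells at P5.

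Ndst3 also separated interneurons by Reln and Tac1. Reln, an extracellular matrix glycoprotein, marks many Martinotti cells, and Tac1, the precursor of substance P, marks part of the non-Martinotti cells. Cells with Lhx6 and no Nos1 were called Reln cells (1162, 622 and 1036) where they had Reln without Tac1, and Tac1 cells (139, 60 and 109) where they had Tac1 without Reln. Tac1 cells had 10.7 (4.91 to 20.4), 24.2 (11.1 to 46.0) and 27.9 (15.6 to 46.1) CPM of Ndst3 at the 3 stages, on 9, 9 and 15 UMIs. Reln cells had 4.52 (3.20 to 6.20), 3.25 (1.78 to 5.45) and 5.53 (3.81 to 7.77). The Tac1 level was above the Reln level in each library, with intervals that overlapped at E16.5 and not at P1 or P5, and log2 ratios of Reln over Tac1 cells of -1.09, -2.57 and -2.15. At E16.5 the direction turned when cells were thinned to 2000 UMIs (0.10), so that the order rests on the postnatal libraries. Tac1 cells and Sst-silent cells share members (63 of 109 Tac1 cells at P5), so these are not separate observations.

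**Figure D3:**
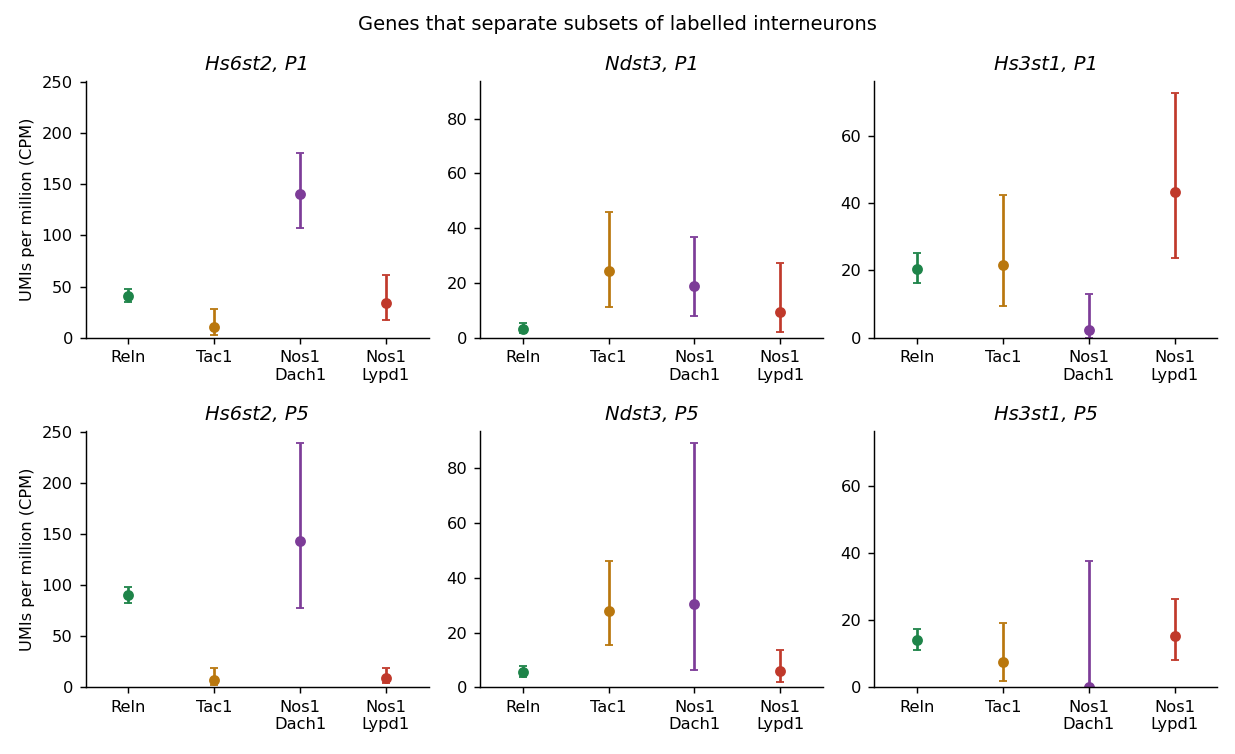
CPM of Hs6st2, Ndst3 and Hs3st1 at P1 and P5 in Reln cells, Tac1 cells, and Nos1 cells with Dach1 or with Lypd1. Bars are exact Poisson 95% intervals of 1 library. Hs6st2 is at 90.2 CPM in Reln and 7.45 in Tac1 cells at P5, Ndst3 has the reverse order (5.53 and 27.9), and Hs3st1 has 1 UMI in Nos1 Dach1 cells at P1 against 14 in Nos1 Lypd1 cells.

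Hs2st1, the only gene for 2-O sulfation of the uronic acid (chr3:144429706-144570181, minus strand), was the most evenly distributed of the 10. Nos1 cells had 116 (90.4 to 147), 103 (89.4 to 118) and 73.9 (62.3 to 86.9) CPM at E16.5, P1 and P5, Sst-high cells 128 (123 to 134), 101 (91.8 to 110.4) and 88.0 (80.0 to 96.7), and Sst-silent cells 101 (91.2 to 112), 100.3 (85.9 to 116) and 93.5 (80.5 to 108). All 9 sums lay within a factor of 2 of each other. The group ratios to Sst-high cells lay between -0.34 and 0.09 on the log2 scale, and the interval of the ratio of Nos1 over Sst-high cells was -0.51 to 0.20 at E16.5, -0.21 to 0.27 at P1 and -0.53 to 0.02 at P5. Hs2st1 was the only member with at least 20 UMIs in all 9 sums. Over these 9 sums, which share 3 libraries, the genes whose log2(CPM + 1) followed it most closely among 4977 were Derl1 (Pearson's r = 0.946), Hdhd2 (0.936) and Acat1 (0.928), given as a description.

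Within Nos1 cells, 1 subdivision gave a larger difference in Hs2st1. Dach1 and Lypd1 mark different LRP neurons. Nos1 cells with Dach1 and no Lypd1 (98 at P1, 27 at P5) had 129 and 122 CPM of Hs2st1, and those with Lypd1 and no Dach1 (55 and 221) had 68.1 and 48.3. The log2 ratios were 0.91 (0.18 to 1.70) at P1 and 1.32 (0.28 to 2.30) at P5, the latter on 12 and 41 UMIs. The intervals of the levels overlapped at both ages (96.9 to 167 against 42.7 to 103 CPM, and 63.1 to 213 against 34.6 to 65.5).

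The 6-O sulfotransferases act on glucosamine, and the balance of the 3 genes differed between cells. Hs6st1 (chr1:36068400-36106446, plus strand) was present in all groups, with 30.3 (18.0 to 47.9), 79.7 (67.7 to 93.2) and 72.3 (60.9 to 85.3) CPM in Nos1 cells, 33.7 (30.7 to 36.8), 58.8 (52.0 to 66.2) and 52.8 (46.6 to 59.6) in Sst-high cells, and 28.9 (23.7 to 34.8), 41.5 (32.5 to 52.2) and 50.5 (41.1 to 61.4) in Sst-silent cells at E16.5, P1 and P5. It was higher after birth than before in all 3 groups, though for Sst-silent cells at P1 the intervals overlapped, and in Nos1 cells the log2 ratio of P5 over E16.5 was 1.23 (1.04 without the Neurod6 cells). Differences between these 3 groups stayed under 2-fold in every library, with log2 ratios of Nos1 over Sst-high cells of -0.15, 0.43 and 0.45. Within Nos1 cells, the log2 ratio of Dach1 over Lypd1 cells was -0.65 (-1.38 to 0.06) at P1 and -1.15 (-3.08 to 0.24) at P5, the latter on 4 and 78 UMIs.

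Hs6st2 lies on the X chromosome (chrX:51387212-51681856, minus strand), and RefSeq gives it a pair of starts with different promoters, shown here because its level differed widely between ages. The window upstream of the first start holds TATAAA at position -55, in capitals below, a sequence found on either strand in 13.6% of 32851 mouse promoters of 300 bases (250 before to 50 after the start). GENCODE places all 250 bases before this start within an exon, so that the match lies in sequence annotated as transcribed. The second start has no such match and is richer in CG pairs (33 in its window against 12). Here 162 bases that end 89 bases before the second start are shown, at chrX:51680566-51680727, and 30 bases at chrX:51681640-51681669 for the first. The 162 bases lie outside annotated exons but, like the 30 bases, inside the GENCODE gene.

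Hs6st2 first start: gaggcattattaTATAAAttcaggctcgct
Hs6st2 second start: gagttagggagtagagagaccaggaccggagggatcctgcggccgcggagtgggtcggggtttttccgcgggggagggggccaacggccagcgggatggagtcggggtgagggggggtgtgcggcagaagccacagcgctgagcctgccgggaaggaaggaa

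In Sst-high cells Hs6st2 had 5.69 CPM (4.53 to 7.07, 82 UMIs) at E16.5, 41.1 (35.5 to 47.4, 189 UMIs) at P1 and 87.0 (79.0 to 95.6, 432 UMIs) at P5. Each stage lay above the one before with no overlap of intervals, and the log2 ratio of P5 over E16.5 was 3.72. Sst-silent cells followed the same order at lower levels, with 2.89 (1.44 to 5.17), 8.64 (4.84 to 14.3) and 23.7 (17.4 to 31.6) CPM. The log2 ratios of Sst-silent over Sst-high cells were -0.78, -2.13 and -1.83, the first on 11 UMIs in 5 Sst-silent cells.

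Nos1 cells had the opposite order, with 103 CPM (78.5 to 132, 61 UMIs) at E16.5, 74.6 (63.1 to 87.7) at P1 and 36.7 (28.7 to 46.2) at P5. The log2 ratio to Sst-high cells accordingly went from 3.95 through 0.84 to -1.22. The E16.5 value lay mostly in a few cells, however. Of its 61 UMIs, 56 lay in the 15 cells with Neurod6, at 294 CPM (222 to 382), and the other 52 Nos1 cells had 5 UMIs, or 12.4 CPM (4.02 to 28.9). Neurod6 cells outside the interneurons, with at least 3 Neurod6 UMIs and no Lhx6, had 159 CPM (123 to 202) at that age. Without the Neurod6 cells the log2 ratio of P5 over E16.5 in Nos1 cells was 1.50 instead of -1.46, and the difference from Sst-high cells at E16.5 lay within counting error (log2 ratio of 1.00). In the Nos1 cells with an Lhx6 UMI it did not: these had 30.1 CPM on 12 UMIs at E16.5, a log2 ratio of 2.22 (1.39 to 3.28). From P1 to P5 Nos1 cells remained lower at the later age with and without the Neurod6 cells, with log2 ratios of -1.01 and -0.89.

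Among interneurons Hs6st2 followed Reln. Reln cells had 3.93 (2.70 to 5.51), 40.9 (35.0 to 47.4) and 90.2 (82.7 to 98.1) CPM at the 3 stages, and Tac1 cells had 1, 4 and 4 UMIs, or 1.19 (0.0302 to 6.65), 10.8 (2.94 to 27.6) and 7.45 (2.03 to 19.1) CPM. The log2 ratios were 1.17, 1.83 and 3.43, and the interval of the first reached from -0.86 to 7.06 because of the single UMI. At P5, 28.4% of Reln cells had a UMI against 3.67% of Tac1 cells, and 14.5% against 1.89% after thinning to 2000 UMIs, at median depths of 5549.5 and 4805 before it.

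Among Nos1 cells Hs6st2 followed Dach1. Dach1 cells had 140.3 CPM (107 to 181, 60 UMIs) at P1 and 143 (77.9 to 239, 14 UMIs) at P5, and Lypd1 cells had 34.1 (17.0 to 60.9, 11 UMIs) and 9.42 (4.07 to 18.6, 8 UMIs). The log2 ratios of Dach1 over Lypd1 cells were 2.01 and 3.78. The level in Dach1 cells did not differ between the 2 ages beyond counting error, and that in Lypd1 cells was lower at P5 with intervals that overlapped. The number of cells went from 98 to 27 for Dach1 and from 55 to 221 for Lypd1, which are part of the 434 and 547 Nos1 cells. Median depth in Dach1 cells was 3955 UMIs at P1 and 2667 at P5. The part of this mix in the log2 ratio of -1.01 over all Nos1 cells, given above, was not tested. Unlike Ndst4, Hs6st2 was not higher with more Nos1 UMIs at P5, with 47.4, 38.5 and 31.6 CPM in cells with 1 to 2, 3 to 9 and 10 or more.

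Hs6st3 (chr14:119138341-119869815, plus strand) was scarce. Nos1 cells had 2, 4 and 6 UMIs at the 3 stages and Sst-silent cells 0, 0 and 6. Sst-high cells had 0.625 CPM (0.286 to 1.19, 9 UMIs), 1.09 (0.353 to 2.54, 5 UMIs) and 5.04 (3.26 to 7.43, 25 UMIs), which is a log2 ratio of 1.89 from E16.5 to P5. At P5 all 25 UMIs lay in different cells, and Reln cells had 30 UMIs (5.03 CPM) where Tac1 cells had 0 of 537110, which allows up to 6.87 CPM and so shows no difference. Summed over the 3 genes, 6-O transcripts reached 136, 156 and 112 CPM in Nos1 cells and 40.0, 101 and 145 in Sst-high cells. Without the Neurod6 cells the E16.5 sum in Nos1 cells was 52.0 CPM (32.2 to 79.5), which overlaps that of Sst-high cells (36.8 to 43.4). Hs6st2 made up 60.1% of those UMIs in Sst-high cells at P5 against 32.7% in Nos1 cells.

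**Figure D4:**
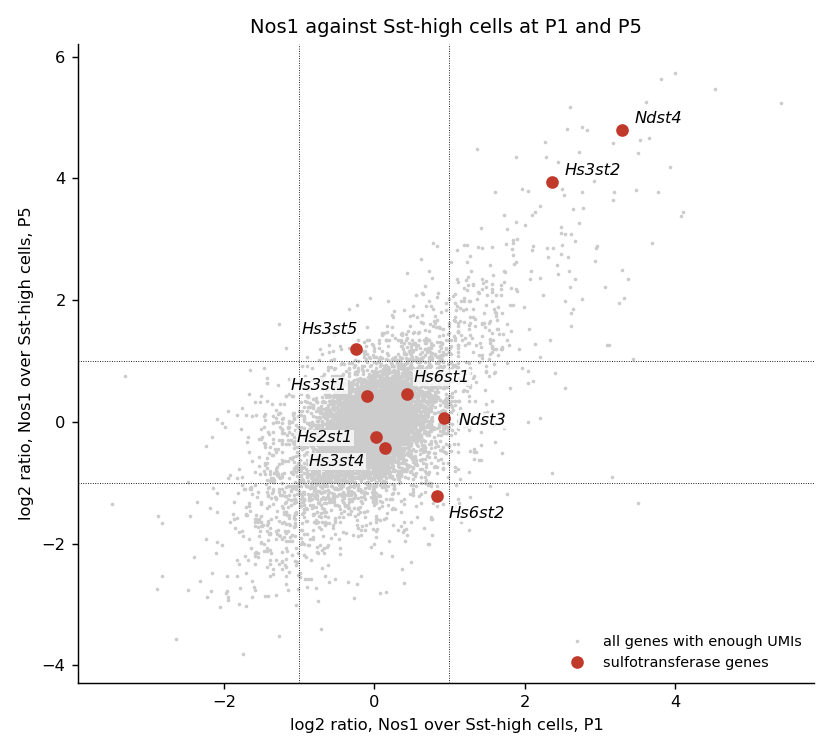
Log2 ratio of Nos1 over Sst-high cells at P1 (x axis) and P5 (y axis), with pseudocount 1 CPM, for the 9 sulfotransferase genes (large points) among all 11990 genes with enough UMIs (small grey points). Dotted lines mark 2-fold. Ndst4 (3.29, 4.79) and Hs3st2 (2.36, 3.94) lie past the line on both axes, and Hs6st2 (0.84, -1.22) lies past it at P5 in the other direction.

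The 3-O sulfotransferases add the last and rarest sulfate. Hs3st2, an enzyme known mainly from brain, lies at chr7:121391859-121501770 on the plus strand. Its promoter is shown because the gene was near 0 at E16.5 and high at P5 in Nos1 cells but not in Sst-high or Sst-silent cells. The 244 bases below (RefSeq, GRCm38, chr7:121392046-121392289, plus strand, ending 7 bases before the start) hold the full palindrome TGACGTCA, the known binding sequence of CREB family factors, at position -69, which is found in 1.79% of the 32851 promoters and in no other of the 11 member windows. GGGCGG, the GC box, is the other stretch in capitals and occurs in 35.7% of promoters and in 6 members on either strand. Neither is shown to be in use here. The GENCODE gene begins before the 244 bases, which therefore lie inside the annotated gene. Of the other motifs searched, ATGCAAAT (the octamer bound by POU factors, 1.74% of promoters) and ACAAAG (bound by SOX factors, 18.7%) occurred in 0 member windows. Windows were at hand for 9 of the 10 members.

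Hs3st2 promoter: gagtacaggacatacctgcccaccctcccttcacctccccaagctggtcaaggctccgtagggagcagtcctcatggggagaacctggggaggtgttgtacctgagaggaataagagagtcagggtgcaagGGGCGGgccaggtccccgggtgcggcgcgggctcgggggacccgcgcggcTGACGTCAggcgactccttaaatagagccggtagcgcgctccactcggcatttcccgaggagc

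In Nos1 cells Hs3st2 had 0 UMIs at E16.5 (0 to 6.21 CPM), 17 at P1 (8.63 CPM, 5.03 to 13.8) and 95 at P5 (48.4 CPM, 39.1 to 59.2). The P5 level was 2.36 above that of P1 on the log2 scale. Set against 3 counts at E16.5 in place of 0, it was 9.58-fold higher, or 6.53-fold without the Neurod6 cells. The interval of the log2 ratio of P5 over E16.5 in all Nos1 cells started at 2.93. Sst-high cells stayed at 0.625 (0.286 to 1.19), 0.870 (0.237 to 2.23) and 2.22 (1.11 to 3.97) CPM, and Sst-silent cells at 1.31, 0 and 3.54. The postnatal log2 ratios of Nos1 over Sst-high cells were 2.36 and 3.94, and the first was 2.03 on 12 UMIs without the Neurod6 cells. The 7 cells at P5 with at least 3 Neurod6 UMIs and no Lhx6 had 13 Hs3st2 UMIs (344 CPM, 183 to 588), and the 545 Nos1 cells without Neurod6 had 48.5 CPM, so that Nos1 cells were not alone in carrying the gene.

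At P5, 14.6% of Nos1 cells had an Hs3st2 UMI, with at most 3 in 1 cell, against 1.12% of Sst-high and 0.869% of Reln cells, and 7.97% against 0.509% of Sst-high cells after thinning. Hs3st2 also went with the Nos1 level at P5, with 18.4 CPM (7.41 to 38.0), 42.1 (26.9 to 62.6) and 63.2 (48.7 to 80.7) in cells with 1 to 2, 3 to 9 and 10 or more Nos1 UMIs. The lowest and the highest class were separate. At P1 the classes had 6.58, 11.7 and 8.97 CPM, on 5, 5 and 7 UMIs, and did not differ beyond counting error. Ndst4 and Hs3st2 were found together in 31 Nos1 cells at P5, where the product of their shares (138 and 80 of 547) would give 20.2. The cells differ in depth, whose part in this count was not tested.

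**Figure D5:**
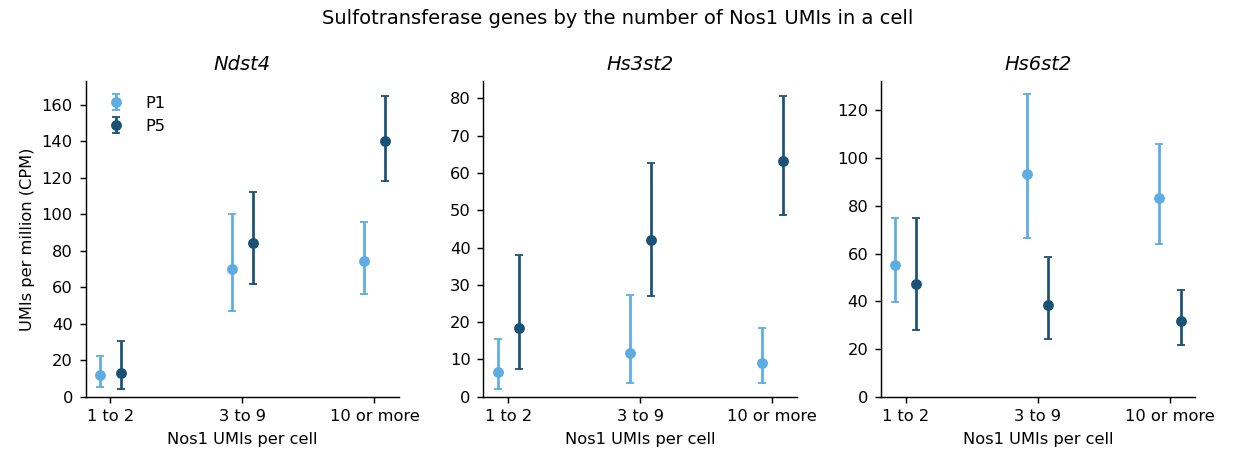
CPM of Ndst4, Hs3st2 and Hs6st2 at P1 and P5 in Nos1 cells with 1 to 2, 3 to 9, and 10 or more Nos1 UMIs. Bars are exact Poisson 95% intervals of 1 library. At P5 Ndst4 goes from 13.2 to 140.2 CPM and Hs3st2 from 18.4 to 63.2, while Hs6st2 goes from 47.4 to 31.6.

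Hs3st1, which makes the antithrombin-binding site of anticoagulant heparan sulfate (chr5:39613935-39755475, minus strand), differed little between the main groups. Nos1 cells had 21.9 (11.7 to 37.4), 20.8 (14.9 to 28.2) and 15.8 (10.7 to 22.4) CPM and Sst-high cells 25.4 (22.9 to 28.2), 22.4 (18.3 to 27.2) and 11.5 (8.70 to 14.9), with log2 ratios of -0.21, -0.10 and 0.43. In Sst-high cells the P5 level was below that of E16.5, with a log2 ratio of -1.08. Sst-silent cells had 11.5, 12.7 and 13.6 CPM, past the fold below Sst-high cells at E16.5 (log2 ratio of -1.07) and not later. The contrast lay within Nos1 cells. At P1 Dach1 cells had 1 UMI (2.34 CPM, 0.0592 to 13.0) and Lypd1 cells 14 (43.4 CPM, 23.7 to 72.7), a log2 ratio of -3.73 with an interval from -9.61 to -1.50. At P5 the counts were 0 and 13, but the Dach1 cells held only 98231 UMIs, too few to place a bound below the 15.3 CPM of Lypd1 cells.

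Hs3st4 (chr7:123982869-124398989, plus strand), a relative of Hs3st2, was spread over Nos1 and Sst-high cells. Nos1 cells had 26.9 (15.4 to 43.7), 10.7 (6.60 to 16.3) and 13.2 (8.65 to 19.4) CPM, Sst-high cells 12.8 (11.0 to 14.8), 9.58 (6.96 to 12.9) and 18.1 (14.6 to 22.3), and Sst-silent cells 1.31 (0.426 to 3.06), 3.46 (1.27 to 7.52) and 14.7 (9.81 to 21.0). Sst-silent cells were lower at E16.5 and P1 and had reached the Sst-high level at P5 within counting error, with log2 ratios of -2.57, -1.25 and -0.29. The ratio of 1.02 for Nos1 over Sst-high cells at E16.5 rested on 16 UMIs, 7 of them in 1 cell, and was -0.04 without the Neurod6 cells. At P5 Reln cells had 25.3 CPM (21.4 to 29.7) and Tac1 cells 2 UMIs (3.72 CPM, 0.451 to 13.5), a log2 ratio of 2.48 with an interval from 0.89 to 5.82. An antisense gene that overlaps Hs3st4 had 16 UMIs in all kept cells.

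Hs3st5 (chr10:36506814-36834397, plus strand), whose product also makes antithrombin-binding sites, changed its order between stages. Nos1 cells had 0 UMIs at E16.5 (0 to 6.21 CPM), 24 at P1 (12.2 CPM, 7.81 to 18.1) and 38 at P5 (19.4 CPM, 13.7 to 26.6). Sst-high cells had 6.81 (5.52 to 8.29), 14.6 (11.3 to 18.5) and 7.86 (5.59 to 10.7) CPM. At E16.5 the 0 UMIs of all Nos1 cells, set at 3 counts, put them 1.35-fold lower, and the interval of the log2 ratio ended at -0.11. The 52 cells without Neurod6 allow no such bound (the interval of their log2 ratio reaches 0.45). At P1 the groups did not differ beyond counting error (log2 ratio of -0.24), and at P5 Nos1 cells were higher (1.20). In Sst-silent cells Hs3st5 had 0 UMIs at E16.5, then 1.73 CPM (3 UMIs) at P1 and 6.06 (3.13 to 10.6) at P5. With the 0 set at 3 counts, the E16.5 level was 8.64-fold below Sst-high cells, and the interval of the log2 ratio ended at -2.79. In total the 3-O genes of the list had 48.8, 52.3 and 96.8 CPM in Nos1 cells and 45.6, 47.4 and 39.7 in Sst-high cells. Without the Neurod6 cells the E16.5 sum in Nos1 cells was 27.3 CPM (13.6 to 48.8). At P5 Hs3st2 supplied 50.0% of these UMIs in the former and 5.58% in the latter. Hs3st3a1, Hs3st3b1 and Hs3st6 were at or near 0 throughout.

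Counted over the list, 2 of the 9 members with enough UMIs in both postnatal libraries were past the fold in Nos1 over Sst-high cells in both of them, Ndst4 and Hs3st2, where 2.07% of 11990 genes were. None was lower in both, where 2.04% of genes were. Hs6st3 had too few UMIs. The median log2 ratio of the 9 members was 0.43 at P1 and 0.43 at P5, beside -0.02 and -0.07 over all genes. Since the members were chosen with earlier results of these data known, neither the count nor this median is independent evidence about the family. Of the family genes outside the list, Ndst1 had log2 ratios of -0.20 and -0.03 and Ndst2 of -0.32 and -1.52. For Sst-silent over Sst-high cells, 0 of 8 members were higher and 0 lower in all 3 libraries (0.315% and 0.681% of 11750 genes), since each of the differences was under 2-fold in at least 1 library. Hs6st2 came closest, with ratios below 0 in all 3 libraries and intervals that exclude 0, but it was short of 2-fold at E16.5 (-0.78), and it was counted as lower under 4 alternatives. Its E16.5 sum in Sst-silent cells was 11 UMIs in 5 cells, 7 of them in 1 cell, a spread that the interval does not cover. Hs3st2 and Hs6st3 had too few UMIs. For Reln over Tac1 cells, 1 of 7 members was higher in all 3 libraries, Hs6st2, against 1.13% of 11222 genes, and 1 was lower, Ndst3, against 0.615%. These calls rest on few Tac1 UMIs at E16.5 and were lost under 4 and 3 alternatives, respectively, among them thinning. In Sst-high cells, 2 of 10 members had a higher P5 than E16.5 level, Hs6st2 and Hs6st3, against 17.7% of 13907 genes, and 2 were lower, Ndst4 and Hs3st1, against 12.6%. The last shares are near the background, so that the counts with age say nothing particular about the list.

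The other genes of heparan sulfate biology were taken as a list of 64. In Nos1 over Sst-high cells 5 of 47 with enough UMIs were higher in both postnatal libraries and 2 lower (2.07% and 2.04% of all genes), all 7 among the ligands and receptors, while 0 of the 10 chain-building, 4 modifying, 7 donor and 9 core protein genes that could be compared passed in either direction. The median log2 ratio of the list was -0.07 at P1 and -0.16 at P5, beside -0.02 and -0.07 over all genes. Ptn, the heparan sulfate-binding growth factor pleiotrophin, had 1802 and 2289 CPM in Nos1 cells against 202 and 133 in Sst-high cells at P1 and P5 (log2 ratios of 3.15 and 4.09). Ntn1, the guidance cue netrin-1, had 47.2 and 43.3 CPM against 1.09 CPM and 0 UMIs. Robo1, a receptor for Slits, had 178 and 97.8 CPM against 60.7 and 33.6 (log2 ratios of 1.53 and 1.51), and the ligand Slit1 had log2 ratios of 1.56 and 1.15 and the growth factor receptor Fgfr1 of 1.20 and 1.64. The lower genes were Slit2 (-1.19 and -1.34) and Alkal2, a ligand of the receptor ALK (-1.35 and -1.13, on 2 UMIs in Nos1 cells at each age).

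Sst-silent cells differed from Sst-high cells in all 3 libraries by 1 of 45 list genes (0.681% of all genes were lower), the core protein Sdc2 (log2 ratios of -1.30, -1.08 and -1.47, the first on 3 UMIs). Reln cells were lower than Tac1 cells in Slit2 (12.4 against 115 CPM at P5), Slit3 and Alkal2, or 3 of 44 list genes (0.615% of all genes), and higher in 0 (1.13%). In Sst-high cells 17 of 51 list genes were past the fold upward from E16.5 to P5 and 11 downward, beside 17.7% and 12.6% of all genes. The higher ones included 4 of 5 modifying genes, among them Ndst1 with a log2 ratio of 1.08, and 5 of 11 chain-building genes. Hpse, Sdc3 and Ptprs were picked by the study from these same libraries, which is therefore no independent evidence of their direction. In Sst-high cells at E16.5, P1 and P5 the heparan sulfate-cleaving enzyme Hpse had 0.0694, 0 and 5.64 CPM, the core protein Sdc3 had 95.1, 429 and 283 CPM, and the receptor phosphatase Ptprs had 300.2, 529 and 794 CPM.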

How the data were processed

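The authors dissociated the NCx with pronase, sorted live GFP+ cells, aligned 10x Genomics reads to GRCm38 with Cell Ranger (version 3.1.0 at E16.5 and P5, 3.0.2 at P1, per the file headers) and deposited raw UMI counts per gene and cell, which are whole numbers and not normalized. Only reads that mapped to 1 gene were counted.

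From these counts, cells were filtered on genes and mitochondrial share as stated in the report, and UMIs were summed per cell group and library in Python 3.11.15 (numpy 2.4.6, scipy 1.17.1, pandas 2.3.3, matplotlib 3.10.9). Intervals are exact Poisson (levels) or Clopper-Pearson (shares) at 95% and cover counting error only. Ratios used a pseudocount of 1 CPM. For a fold against a 0, the 0 was set at 3 counts and the other sum was taken as counted, so that the fold is not the lower end of an interval. No p-value was computed, since cells of 1 library are not replicates. No doublet caller was run and doublets were left in. The median log2 ratio of all genes lay within 0.18 of 0 in every comparison. Of 65 pathway symbols, 64 matched the files. Each fixed comparison was recomputed under 12 alternatives, and those of Nos1 cells under 2 more that were chosen after the values were seen, as was the Chodl split. The ratio code was tested on simulated data. Gene positions are from GENCODE M21 and promoters from RefSeq. Named genes are the family, the pathway genes past the fold in each library compared, 3 that the study lists, and those most like a member. Members and lists were chosen with earlier results of these data known.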

Additional observations from a re-analysis of the deposited data

Results flagged for a closer look

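Several members differed between groups of cells in opposite directions under the same contrast. None of these differences was tested, since each value comes from 1 library per stage, and some of the sums are small (7 UMIs for Ndst4 in Sst-silent cells at E16.5). For Ndst4, the log2 ratio of Sst-silent over Sst-high cells was -2.93 at E16.5 and 1.55 at P5. Its ratio of P1 over E16.5 was -2.07 in Sst-high and 1.37 in Sst-silent cells, and its ratio of P5 over E16.5 was -2.58 in Sst-high cells, 1.22 in Nos1 cells (0.68 without the Neurod6 cells) and 1.90 in Sst-silent cells.

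For Hs6st2, the log2 ratio of Nos1 over Sst-high cells was 3.95 at E16.5 and -1.22 at P5. From P1 to P5 it was -1.01 in Nos1 cells, 1.06 in Sst-high cells and 1.36 in Sst-silent cells, and from E16.5 to P5 -1.46, 3.72 and 2.67. The E16.5 values in Nos1 cells moved with the excitatory-neuron genes of the 15 cells with Neurod6, and without those cells the ratio of P5 over E16.5 in Nos1 cells was 1.50, which no longer opposes the other groups.

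For Hs3st5, Nos1 over Sst-high cells gave -2.96 at E16.5, where Nos1 cells had 0 UMIs and the interval of the log2 ratio ended at -0.11, and 1.20 at P5. Without the Neurod6 cells the 0 UMIs give no bound at E16.5 (the interval reaches 0.45), so that the lower level there is not shown.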

How the results depend on the processing

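No paired analysis was possible because each stage has 1 library, and for the same reason no replicate could be left out. Over 14 alternatives, 459 of 499 recomputed member ratios kept their direction and stayed within their counting interval, 38 moved further, and 2 reversed: Hs3st4 in Nos1 over Sst-high cells at E16.5 (-0.04 without Neurod6 cells, 1.02 as reported) and Ndst3 in Reln over Tac1 cells at E16.5 (0.10 after thinning, -1.09 as reported). Only ratios past the fold as reported, and those of Ndst4 in Nos1 cells, were followed. Ratios that fell under 10 UMIs in an alternative were not counted. Thinning thus had 33 values and stricter quality control 35, where settings that lost no ratio had 41. Some intervals are wide, as for Hs6st2 in Reln over Tac1 cells at E16.5 (-0.86 to 7.06).

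Of the counts of members, Nos1 above Sst-high cells was 1 instead of 2 under stricter quality control (over 1000 genes, under 5% mitochondrial UMIs) and under thinning to 2000 UMIs, where Hs3st2 had under 10 UMIs at P1. Ndst4 stayed past the fold at P1 and P5 in every alternative run, with log2 ratios of at least 2.57 and 3.78. The members above at P5 in Sst-high cells were 1 instead of 2 with a pseudocount of 5 CPM and under thinning, and those below were 1 instead of 2 with that pseudocount, with the mean of per-cell CPM, under thinning, and without Neurod6 cells and the deepest 5% of cells. Reln above Tac1 was 0 instead of 1 with that pseudocount, with per-cell means, under thinning, and without Neurod6 and the deepest cells. Reln below Tac1 was 0 instead of 1 under stricter quality control, with that pseudocount, and under thinning. Sst-silent below Sst-high was 1 (Hs6st2) instead of 0 without Nos1 cells, with per-cell means, under thinning, and without Neurod6 and the deepest cells. For all of these the cause was not tested beyond the fewer UMIs left. Depth limits what can be said of Hs6st3, of Tac1 cells and of Nos1 cells at E16.5.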
